A study of Mus musculus with 6 samples.

Results

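The genes described here encode transcription factors that set up and maintain hepatocyte identity, and they were examined in the liver of pups in which human *SRY*, the testis-determining gene of the Y chromosome, was ectopically activated. They were taken as every probe whose gene symbol was *Hnf4a*, *Foxa1*, *Foxa2*, *Foxa3*, *Cebpa*, *Cebpb*, *Onecut1*, *Prox1* or *Gata4* in the table. Of these 9 genes, 8 had a probe, among 18138 gene symbols in all, and together they had 10 of the 25697 probes. *Onecut1*, which encodes hepatocyte nuclear factor 6, had no probe with its symbol and was not analysed here. Male FVB/N pups, FVB in the labels, were compared at postnatal day 6, with 3 livers in each group, and each liver was hybridised to 1 Illumina BeadChip. Every pup carried a single line of a transgene named Signalox-hSRY, inserted at a defined locus behind the broadly active CAG promoter. In hSRY-OFF pups the transgene was not recombined and the promoter drove a red fluorescent protein. In hSRY-ON pups Cre recombinase, supplied by the oocytes of *Ddx4-Cre* mothers, had recombined it in the early embryo, so that FLAG-tagged human *SRY* and a green fluorescent protein were placed under the promoter in the whole body. Changes could therefore begin in any organ, and the fluorescent protein differed between the groups together with *SRY*. For the arrays, the authors selected hSRY-ON pups that did not carry the *Ddx4-Cre* transgene themselves. The array carries probes to mouse genes, and the level of human *SRY* was not analysed here.

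In hSRY-ON livers *Cebpa*, *Foxa3*, *Foxa2*, *Prox1* and *Gata4* were lower, *Cebpb* was higher, and the differences of *Hnf4a* and *Foxa1* were not past the threshold. *Cebpa* was 3.16-fold lower and *Cebpb* 2.61-fold higher, so that these C/EBP genes moved in opposite directions. *Foxa3* was 1.89-fold lower and *Foxa2* 1.78-fold lower. The calls of *Cebpa*, *Cebpb* and *Foxa3* held in all 16 other ways of processing the data, whereas those of *Foxa2*, *Prox1* and *Gata4* depended on some of them.

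Hepatocyte transcription factors act as a network, in which each factor binds the regulatory regions of many liver genes and of the other factors. HNF4A is a nuclear receptor needed for hepatocyte differentiation, the FOXA proteins open chromatin at liver enhancers, and the C/EBP proteins are leucine zipper factors that drive metabolic and acute phase genes. PROX1 is a homeodomain protein of early hepatoblasts, and GATA4 is a zinc finger factor of the liver primordium that is also expressed in sinusoidal endothelial and stellate cells of the later organ.

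The promoter windows of 4 of these genes are shown because the first 3 belong to the genes whose calls held in every setting, and the fourth is the member window that holds the letters of a FOXA site. Each window runs from 250 bases before to 50 bases after the start site in RefSeq (assembly GRCm38.p6), 5′ to 3′ on the strand of the gene. In the first 3, CpG dinucleotides are in capitals, and in the window of *Foxa1* the capitals mark the FOXA letters.
Cebpa, chr7:35119043-35119342, plus strand: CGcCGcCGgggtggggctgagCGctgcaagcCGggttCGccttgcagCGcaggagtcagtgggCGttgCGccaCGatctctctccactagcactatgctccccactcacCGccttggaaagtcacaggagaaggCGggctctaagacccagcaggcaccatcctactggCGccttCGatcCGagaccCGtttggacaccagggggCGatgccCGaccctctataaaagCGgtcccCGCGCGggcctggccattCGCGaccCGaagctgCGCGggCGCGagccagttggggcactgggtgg
Cebpb, chr2:167688665-167688964, plus strand: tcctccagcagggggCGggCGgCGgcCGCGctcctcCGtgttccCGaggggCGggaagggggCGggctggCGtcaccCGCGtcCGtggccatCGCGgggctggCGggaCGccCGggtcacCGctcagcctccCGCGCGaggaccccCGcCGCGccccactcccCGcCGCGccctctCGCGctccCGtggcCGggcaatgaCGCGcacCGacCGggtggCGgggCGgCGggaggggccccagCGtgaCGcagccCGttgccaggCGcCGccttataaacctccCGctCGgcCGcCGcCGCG
Foxa3, chr7:19023490-19023789, minus strand: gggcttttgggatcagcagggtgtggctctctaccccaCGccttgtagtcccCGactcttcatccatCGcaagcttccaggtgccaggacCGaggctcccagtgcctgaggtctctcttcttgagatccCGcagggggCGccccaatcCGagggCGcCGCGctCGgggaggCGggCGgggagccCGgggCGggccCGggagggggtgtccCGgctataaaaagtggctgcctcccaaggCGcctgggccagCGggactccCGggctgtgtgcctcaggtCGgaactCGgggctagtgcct
Foxa1, chr12:57546062-57546361, minus strand: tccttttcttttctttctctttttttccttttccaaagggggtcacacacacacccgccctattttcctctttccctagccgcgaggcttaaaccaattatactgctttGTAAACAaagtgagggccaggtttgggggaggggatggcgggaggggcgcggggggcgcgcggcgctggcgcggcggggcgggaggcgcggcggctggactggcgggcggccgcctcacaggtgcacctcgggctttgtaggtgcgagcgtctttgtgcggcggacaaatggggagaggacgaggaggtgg

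The window of *Cebpb* held 50 CpG dinucleotides, that of *Cebpa* 29 and that of *Foxa3* 22, against a median of 7 over 32851 windows of the same length. CpG-rich windows were therefore found both at the C/EBP gene that was higher and at the one that was lower. The start sites of *Hnf4a* differed from these, with 4 CpG dinucleotides in each of its 2 windows. Over the 8 genes with a window, which include *Onecut1* but not *Gata4*, 10 of 12 windows lay above that median.

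Letters of the binding motifs of 6 factors were looked for on both strands of the 12 windows, and matches are descriptions of sequence, not of binding. The motif AACAAT of SRY was found at 0 of the 8 genes, against 12.2% of all genes with a window, and TTGCNNAA of C/EBP likewise at 0 of the 8, against 12.2%. The FOXA motif TGTTTAC was found at *Foxa1* alone, at positions -141 to -135, against 4.05% of genes. The GATA motif AGATAA was found at *Foxa2* and *Hnf4a*, against 12.7% of genes. CAAAGTCCA of HNF4A and ATCGAT of the ONECUT factors were found at 0 of the 8 genes, against 0.555% and 1.02%. SRY and FOXA motifs overlap other motifs of their families, so the letters do not single out a factor.

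The 6 arrays were alike in median intensity and in the share of probes detected. Median intensities before normalization ranged from 147 to 165, and 40.2% to 41.9% of probes were detected on an array, with a detection p under 0.01. The lowest normalized signal among detected probes, called the detection floor below, lay at log2 5.62 to 5.79. All levels below are normalized log2 intensities, and all differences are hSRY-ON minus hSRY-OFF on that scale, given with the standard error of limma and an adjusted p over 10734 tested probes. A probe was called when the adjusted p was under 0.05. The replicates are biological triplicates, but the sources used here tie no array to a litter. By the paper's definitions littermate controls lack the transgene, whereas hSRY-OFF mice carry it unrecombined. Mother and litter may therefore differ together with the group, and their effects cannot be told apart from that of recombination. In RNA from whole liver, fewer cells of a type and less RNA per cell cannot be told apart.

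Of the 10 probes, 9 were detected on enough arrays to be tested, 1 was called higher (*Cebpb*) and 6 were called lower (*Foxa2*, *Foxa3*, *Cebpa*, both probes of *Prox1*, and *Gata4*). Among all tested probes, 33.1% were called, 15.8% higher and 17.3% lower. At the same 7 probes the 3 hSRY-ON values all lay on one side of the controls, which was the case in the higher direction for 25.4% and in the lower direction for 24.6% of all tested probes. *Gata4* passed the detection filter through its hSRY-OFF arrays alone, and so did 1 probe of *Prox1* apart from a single hSRY-ON array, so that falls of these 2 probes are favoured by the filter. The remaining probe, 1 of 2 for *Foxa2* (ILMN_1229325), was detected on 0 of the 6 arrays.

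**Figure D1:**
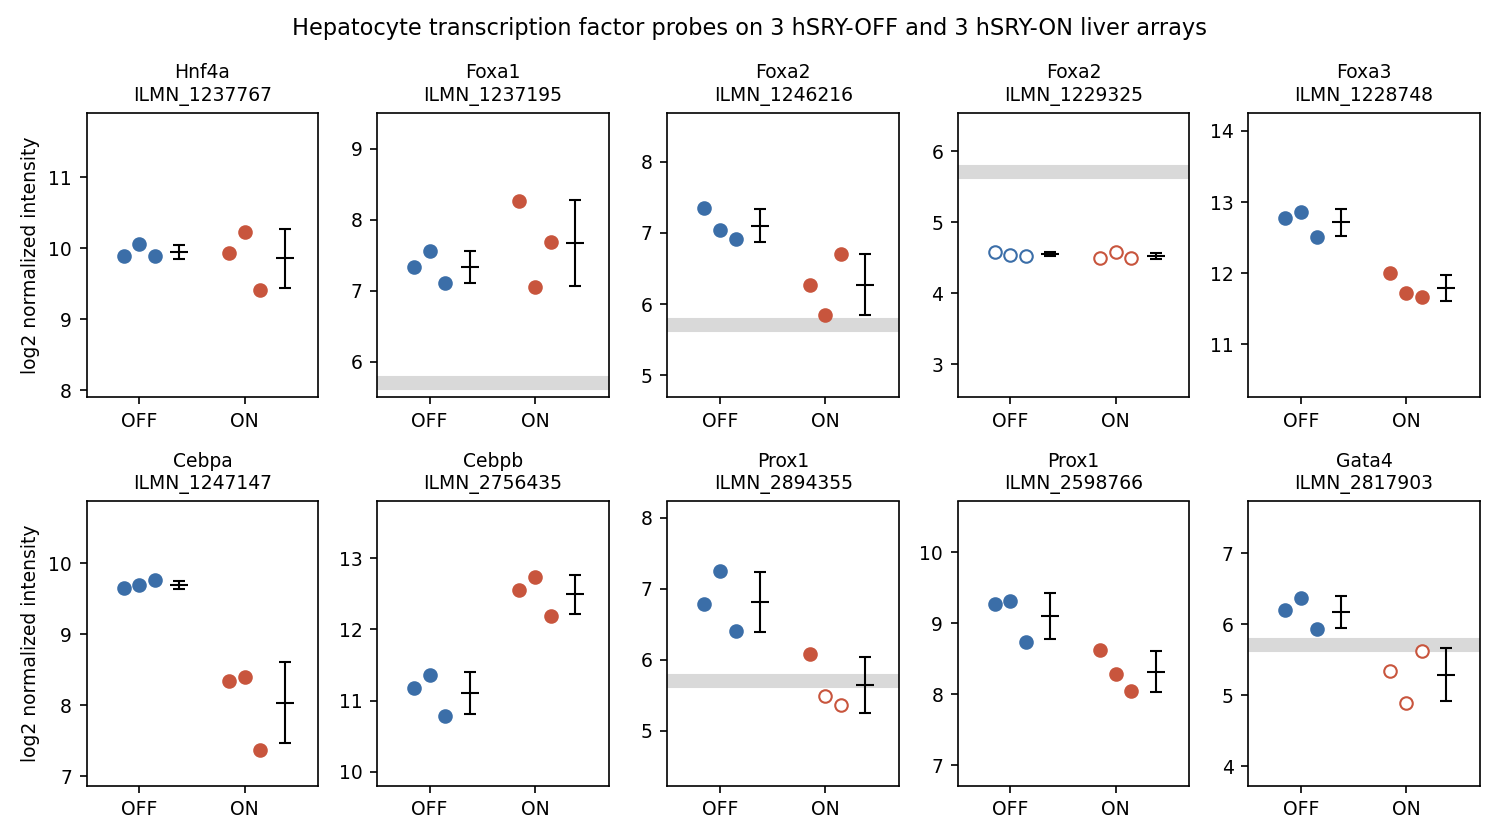
Normalized log2 intensity (vertical axis, a span of 4 log2 units in each panel) of the 10 probes on the 3 hSRY-OFF (blue) and 3 hSRY-ON (red) arrays. Open circles were not detected, the grey band spans the detection floors, and black marks give the mean and SD of each group. The groups are apart at *Cebpa*, *Cebpb* and *Foxa3* and overlap at *Hnf4a* and *Foxa1*.

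*Hnf4a* (ILMN_1237767), which encodes the nuclear receptor of the network, had levels of 9.90, 10.06 and 9.89 in hSRY-OFF and 9.94, 10.22 and 9.41 in hSRY-ON livers. The hSRY-ON values lay on both sides of the hSRY-OFF values, with replicate 3 the lowest of the 6. The difference was -0.09 ± 0.21 (SE, n = 3 each, limma adjusted p 0.768), with a 95% confidence interval from -0.58 to 0.40. Expressed as a ratio, hSRY-ON over hSRY-OFF was 0.939, with an interval of 0.669 to 1.32. The direction rested on 1 array, since the difference was 0.13 without hSRY-ON replicate 3 (adjusted p 0.49). The absolute difference of *Hnf4a* was larger than those of 15.2% of the tested probes.

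The 3 *Foxa* genes encode closely related forkhead factors. *Foxa3* (ILMN_1228748), the member of the family that is most abundant in adult liver, had normalized intensities, on the linear scale, of 6988, 7453 and 5805 in hSRY-OFF and 4097, 3384 and 3228 in hSRY-ON livers. All hSRY-ON values were below the lowest hSRY-OFF value. On the log2 scale the means were 12.71 ± 0.19 and 11.79 ± 0.18 (SD). The difference was -0.92 ± 0.15 (SE, n = 3 each, limma adjusted p 0.00449), a 1.89-fold lower level with a 95% confidence interval of 1.47 to 2.42. Over the alternatives its difference ranged from -1.09 to -0.84.

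*Foxa2* (ILMN_1246216), needed together with *Foxa1* for liver specification, had levels of 7.36, 7.05 and 6.91 in hSRY-OFF and 6.27, 5.84 and 6.70 in hSRY-ON livers. The groups were apart, but hSRY-ON replicate 3 lay close to the lowest hSRY-OFF value. The difference was -0.83 ± 0.23 (SE, n = 3 each, limma adjusted p 0.0304), 1.78-fold lower with an interval of 1.22 to 2.60. The call was lost when any one of hSRY-OFF replicates 1, 2 and 3 or hSRY-ON replicates 1 and 2 was left out, with adjusted p-values of 0.109, 0.0788, 0.0506, 0.0776 and 0.0596, and the difference without these arrays ranged from -0.94 to -0.62. The call was also lost with no filter, and with the trimmed mean scaling without background correction (-0.37, adjusted p 0.0584). Without that correction alone the difference was also -0.37, but the call held (adjusted p 0.0368). Over the 16 alternatives the adjusted p ranged from 0.00485 to 0.109.

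*Foxa1* (ILMN_1237195) had levels of 7.34, 7.56 and 7.11 in hSRY-OFF and 8.27, 7.06 and 7.69 in hSRY-ON livers. The hSRY-ON livers varied more than the controls and included both the highest and the lowest of the 6 values. The difference was 0.34 ± 0.29 (SE, n = 3 each, limma adjusted p 0.412), with an interval from -0.35 to 1.02. Its size rested on single arrays, at 0.04 without hSRY-ON replicate 1 (adjusted p 0.922) and 0.64 without hSRY-ON replicate 2 (adjusted p 0.0701).

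The C/EBP genes gave the largest differences of the group. *Cebpa* (ILMN_1247147) encodes C/EBPα, which drives genes of glucose and nitrogen metabolism and restrains proliferation of hepatocytes. Its levels were 9.65, 9.69 and 9.76 in hSRY-OFF and 8.34, 8.39 and 7.38 in hSRY-ON livers. The controls were tightly grouped, every hSRY-ON value was more than 1 log2 unit below them, and hSRY-ON replicate 3 was the lowest. The difference was -1.66 ± 0.27 (SE, n = 3 each, limma adjusted p 0.00392), 3.16-fold lower with a 95% confidence interval of 2.05 to 4.88. Without hSRY-ON replicate 3 it was -1.33 (adjusted p 0.000516).

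*Cebpb* (ILMN_2756435) encodes C/EBPβ, which is induced in liver by cytokines, glucagon signalling and regeneration. Its levels were 11.18, 11.36 and 10.78 in hSRY-OFF and 12.56, 12.73 and 12.19 in hSRY-ON livers. Each hSRY-ON value exceeded every control value. The difference was 1.39 ± 0.20 (SE, n = 3 each, limma adjusted p 0.00266), 2.61-fold higher with an interval of 1.89 to 3.62, and it ranged from 1.21 to 1.54 over the alternatives.

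*Prox1*, which encodes a homeodomain factor of hepatoblasts and of lymphatic endothelium, was measured with 2 probes. Levels of the brighter one (ILMN_2598766), detected on all arrays, were 9.27, 9.32 and 8.73 in hSRY-OFF and 8.62, 8.29 and 8.05 in hSRY-ON livers. The difference was -0.79 ± 0.21 (SE, n = 3 each, limma adjusted p 0.0272), 1.73-fold lower with an interval of 1.22 to 2.44. With the highest hSRY-ON value just under the lowest control value, the groups were narrowly apart. This call did not hold when hSRY-OFF replicate 1 (-0.70, adjusted p 0.0996) or 2 (-0.68, 0.0968) was left out, nor when replicate 2 (-0.77, 0.0592) or 3 (-0.65, 0.0539) of the hSRY-ON group was, nor with either of the other scalings or all probes kept. The adjusted p lay between 0.0149 and 0.0996 over the 16 alternatives.

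The second *Prox1* probe (ILMN_2894355) was dim, at 6.78, 7.24 and 6.41 in hSRY-OFF and 6.09, 5.49 and 5.36 in hSRY-ON livers. It was detected on all 3 hSRY-OFF arrays but on only 1 hSRY-ON array. The difference was -1.17 ± 0.26 (SE, n = 3 each, limma adjusted p 0.0143), and -0.95 with the undetected arrays at their floor. Both probes of the gene thus moved in the same direction. The call of the dim probe was lost without hSRY-OFF replicate 1 (-1.18, adjusted p 0.0503), the highest adjusted p of its 15 alternatives, of which the lowest was 0.0132.

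*Gata4* (ILMN_2817903) was the dimmest of the tested probes, at 6.19, 6.37 and 5.93 in hSRY-OFF and 5.34, 4.89 and 5.63 in hSRY-ON livers. It was not well above background on any hSRY-ON array, so only a bound can be given there. *Gata4* was at least 1.37-fold lower (limma adjusted p 0.0183). Without background correction its log2 difference was -0.28, against -0.88 with it, so that the bound holds for the corrected values only. The fitted difference of -0.88 ± 0.21 (SE) lost its call when replicate 1 (-0.86, adjusted p 0.0648) or 2 (-0.76, 0.0691) of the hSRY-OFF group was left out. The call was also lost with the trimmed mean scaling without background correction (-0.29, 0.0748), but held without that correction alone (adjusted p 0.048). The lowest adjusted p over its 15 alternatives was 0.00359. *Gata4* also belongs to the sinusoidal endothelial and stellate marker lists described below, and the part of these cells in its difference was not tested.

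**Figure D2:**
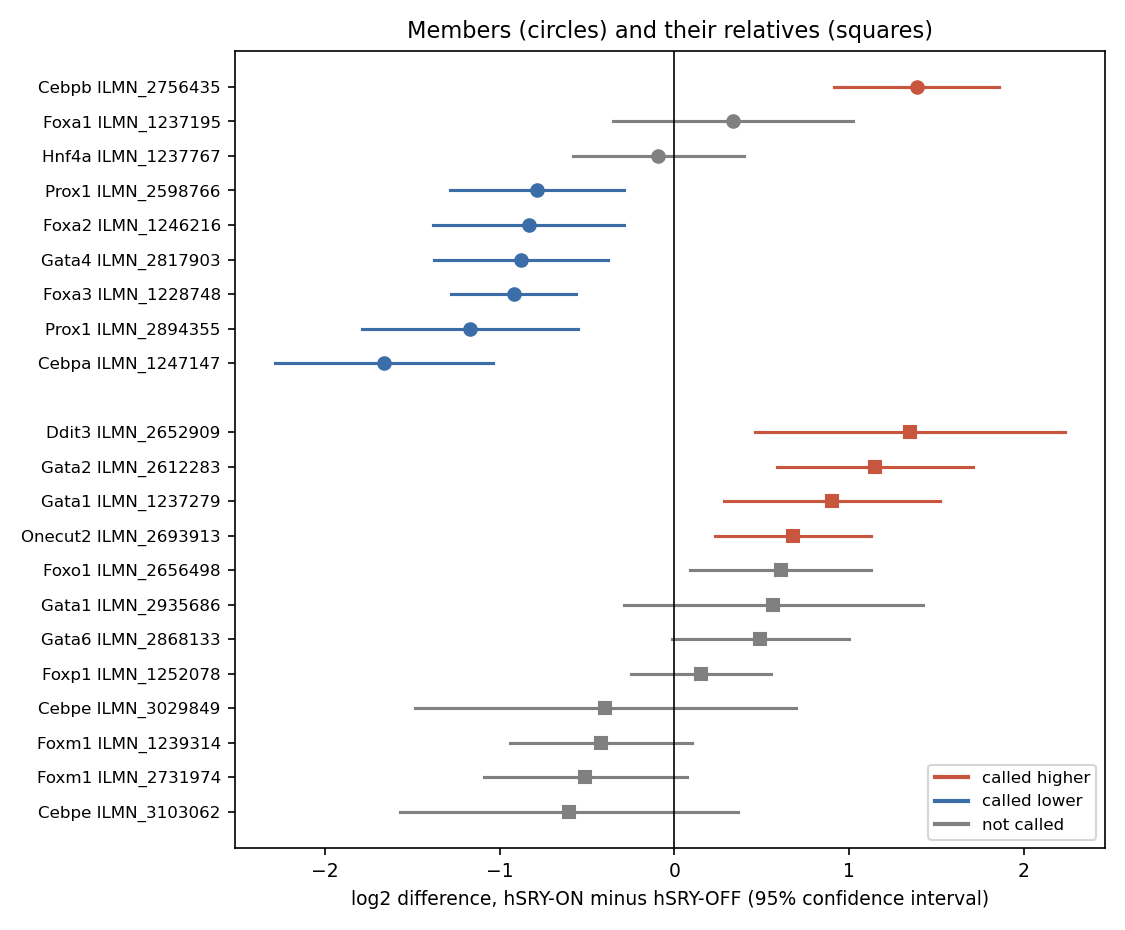
Log2 difference, hSRY-ON minus hSRY-OFF (horizontal axis), with its 95% confidence interval, for the 9 tested probes of the hepatocyte factors (circles) and 12 tested probes of their relatives (squares). Red marks probes called higher, blue probes called lower and grey probes not called. Blue is seen among the circles but not among the squares, where 17.3% of all tested probes were called lower.

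To compare how closely related factors moved against each other, the log2 level of one probe was subtracted from that of the other on the same array. The level of this difference depends on the brightness of both probes, so that only its change between groups is compared. *Cebpa* minus *Cebpb* was -1.53, -1.67 and -1.02 in hSRY-OFF and -4.22, -4.34 and -4.82 in hSRY-ON livers. The groups were far apart, and the change was -3.05 ± 0.27 (SE, n = 3 each). An exact two-sided permutation test gave p = 0.1, the smallest p that 3 against 3 arrays allow, and 0.133 after adjustment over the 4 pairs compared, so no pair could pass the threshold.

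Within the *Foxa* family, *Foxa1* minus *Foxa3* was -5.43, -5.31 and -5.39 in hSRY-OFF and -3.73, -4.66 and -3.97 in hSRY-ON livers. This was a change of 1.25 ± 0.28 (SE, n = 3 each, exact permutation p = 0.1, adjusted 0.133). *Foxa1* minus *Foxa2* changed by 1.17 ± 0.34 (exact permutation p = 0.1, adjusted 0.133), and by 0.58 without background correction. The groups did not overlap for either pair. *Foxa2* minus *Foxa3* changed by 0.09 ± 0.31 (exact permutation p = 0.9), with overlapping groups, and its sign turned to -0.02 without hSRY-OFF replicate 2 and to -0.20 without hSRY-ON replicate 3. The size of this change depended on the background correction, since it was 0.53 without correction. With the trimmed mean scaling, also without correction, it was 0.65, and each had an exact permutation p of 0.1.

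**Figure D3:**
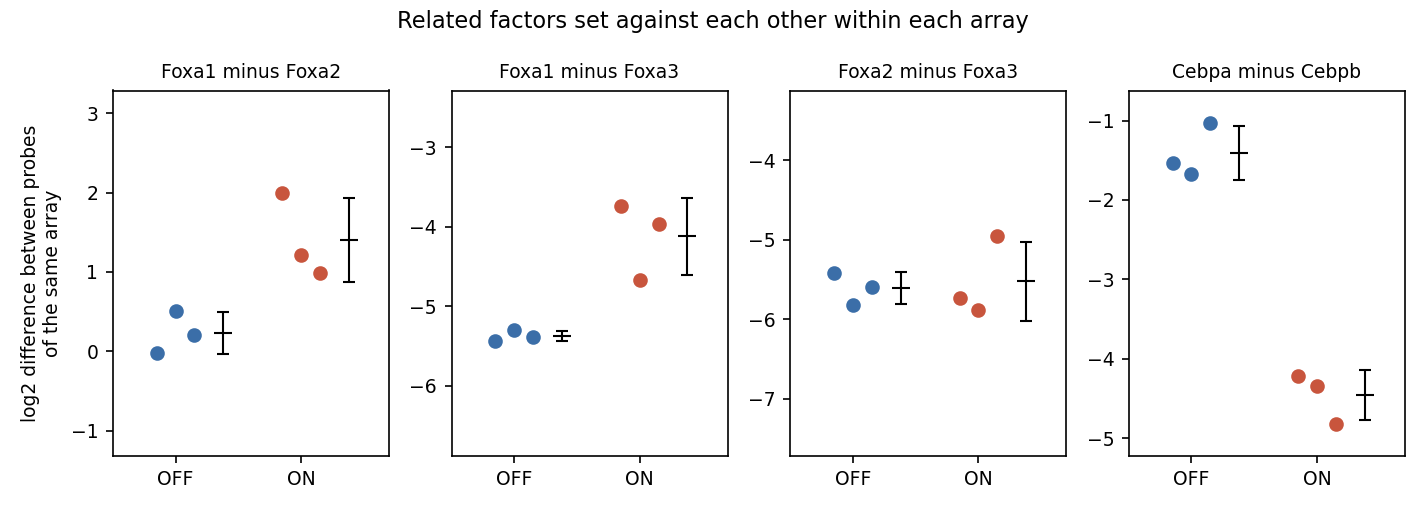
Log2 level of one probe minus that of a related probe on the same array (vertical axis, a span of 4.6 log2 units in each panel) for 4 pairs, in hSRY-OFF (blue) and hSRY-ON (red) livers, with the mean and SD of each group in black. *Cebpa* minus *Cebpb* is lower in every hSRY-ON liver, and *Foxa2* minus *Foxa3* overlaps between the groups.

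Relatives of the factors were looked at next, because a paralogue can bind the same sites. Of 18 relatives listed, 17 had a probe, and 12 probes of 9 genes were detected well enough to be tested. Of these, limma called 4 higher and 0 lower (5 and 0 at an unadjusted p under 0.05), with a median difference of 0.53 against 0.02 over all tested probes. The share called, 33.3%, was near the 33.1% of all tested probes, of which 15.8% were higher and 17.3% lower. *Onecut2* (ILMN_2693913), the paralogue of the unmeasured *Onecut1*, had levels of 10.45, 10.67 and 10.49 in hSRY-OFF and 11.56, 11.25 and 10.85 in hSRY-ON livers. The groups did not overlap, and the difference was 0.68 ± 0.19 (SE, n = 3 each, limma adjusted p 0.0304). The call was lost without each of hSRY-OFF replicates 1, 2 and 3 (adjusted p 0.105, 0.0637 and 0.086), without hSRY-ON replicates 1 and 2 (0.0754 and 0.0652), with both other scalings and with no filter.

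*Ddit3* (ILMN_2652909), which encodes the C/EBP relative CHOP that is induced by stress, had levels of 7.96, 7.81 and 8.26 in hSRY-OFF and 10.31, 8.93 and 8.85 in hSRY-ON livers. The difference was 1.35 ± 0.38 (SE, n = 3 each, limma adjusted p 0.0309), with hSRY-ON replicate 1 the highest. The call was lost when hSRY-OFF replicate 1, 2 or 3 was left out (adjusted p 0.0925, 0.0991 and 0.0565) and with no filter (0.0703). Without hSRY-ON replicate 1 the difference was 0.87. A second probe of *Ddit3* (ILMN_2927373) was detected on 1 hSRY-ON array only and was not tested. The *Cebpe* probes were not called, and *Cebpg* was detected on 0 arrays.

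*Gata2* (ILMN_2612283) and *Gata1*, factors of blood precursors and red cells, were higher. *Gata2* had a difference of 1.15 ± 0.24 (SE, n = 3 each, limma adjusted p 0.0108). Only 1 hSRY-OFF array detected it, and placing the undetected arrays at their floor gave a difference of 0.995. Its probe passed the detection filter mainly through the hSRY-ON arrays, so that this rise is favoured by the filter. Without background correction the difference was 0.44. *Gata1* was called with 1 probe (ILMN_1237279, 0.90 ± 0.26, SE, limma adjusted p 0.0354) and not with the other (ILMN_2935686, 0.57 ± 0.37, adjusted p 0.266). Its values were looked at because it was the fourth probe called, outside the rule for naming genes. Of 14 tested probes of erythroid markers, a list that includes *Gata1*, limma called 6 higher and 0 lower (8 and 0 at an unadjusted p under 0.05). The higher share was 42.9%, against 15.8% of all tested probes, of which 17.3% were called lower. The summed level of these markers on the linear scale was 66375 to 88933 in hSRY-OFF and 87041 to 101584 in hSRY-ON livers. The part of red cell precursors in the differences of the *Gata* genes was not tested. *Gata6*, the closest relative of *Gata4* in endoderm, had a difference of 0.49 ± 0.22 (SE, limma adjusted p 0.12) and was not called.

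A wider list of liver transcription factors and cofactors held 43 genes, of which 38 probes of 32 genes were tested. Of these probes 7 were called higher (18.4%) and 12 lower (31.6%), against 15.8% and 17.3% of all tested probes. The median difference was -0.18. *Mlxipl* (ILMN_2992232), the carbohydrate-responsive factor ChREBP, fell from 10.54, 10.52 and 10.46 to 8.76, 8.77 and 8.90, a difference of -1.70 ± 0.11 (SE, n = 3 each, limma adjusted p 0.000151). *Srebf1* (ILMN_2792089), which controls fatty acid synthesis, was at least 5.42-fold lower (adjusted p 0.000219), and *Tbx3* (ILMN_3139514), a hepatoblast factor, at least 1.48-fold lower (adjusted p 0.0024). A second probe of each gene (ILMN_2696876 and ILMN_3061990) was detected on 0 arrays and not tested. Neither tested probe was detected on any hSRY-ON array. Both passed the detection filter through the hSRY-OFF arrays alone, so that their falls are favoured by the filter. Without background correction their log2 differences were smaller, at -1.34 for *Srebf1* and -0.37 for *Tbx3*, against -2.88 and -1.16 with it, so that the bounds hold for the corrected values only.

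The rises with the smallest p in the wider list were those of a corepressor, a receptor and a repressor, while the largest rise was that of *Klf9* (ILMN_1254031), a Krüppel-like factor outside the rule for naming genes, at 2.11 ± 0.36 (SE, n = 3 each, limma adjusted p 0.00472). *Ncor1* (ILMN_2599997), a corepressor of nuclear receptors, was higher by 1.61 ± 0.14 (SE, n = 3 each, limma adjusted p 0.000356). *Esrra* (ILMN_2972292), an orphan receptor of mitochondrial genes, was higher by 1.09 ± 0.15 (adjusted p 0.00198). *Bcl6* (ILMN_1230353), a repressor that is regulated by growth hormone in liver, was higher by 1.39 ± 0.21 (adjusted p 0.00339). The calls of the 6 genes named by the rule held in every alternative in which their probes were tested, but without background correction the differences of *Ncor1* and *Bcl6* were 0.87 each.

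For each hepatocyte factor other than *Prox1*, the probe among the 50 tested probes of relatives and other factors whose levels followed it most closely was found by Pearson correlation over the 6 arrays. All these correlations contain the difference between the groups and are given as a description. *Foxa3* and *Cebpa* were both most like *Nfix*, which encodes a nuclear factor I protein (r = 0.986 and 0.952). *Foxa2* and *Gata4* were most like the same probe of *Nr2f6*, an orphan nuclear receptor (r = 0.962 and 0.988). *Cebpb* was most like *Esrra* (r = 0.971), and *Hnf4a* most like *Nr5a2* (r = 0.962), a nuclear receptor of bile acid genes whose difference was not past the threshold. The closest for *Foxa1* was *Ddit3*, at a lower r of 0.687.

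Genes known as targets of the factors were examined in 3 lists, which share some genes. Of 33 tested probes of HNF4A targets, 2 were called higher (6.06%) and 12 lower (36.4%), against 15.8% and 17.3% of all tested probes. The median difference was -0.28, and the differences ranged from -3.03 to 4.47. The largest fall lay outside the rule for naming genes. *Apoa4* (ILMN_2834123), an apolipoprotein gene, was at 8.89, 9.11 and 8.93 in hSRY-OFF and 13.28, 13.89 and 13.17 in hSRY-ON livers, higher by 4.47 ± 0.20 (SE, n = 3 each, limma adjusted p 3.99e-05). *Apoc3* (ILMN_2651539), its neighbour in an apolipoprotein cluster, was higher by 1.35 ± 0.13 (adjusted p 0.000492). These 2 rises stood beside falls of *Cyp8b1* (ILMN_2627744), a bile acid hydroxylase, by 1.15 ± 0.14 (adjusted p 0.00135), *Apom* (ILMN_2916782), by 1.27 ± 0.19 (adjusted p 0.00296), and *Nr1i3* (ILMN_2926661), the xenobiotic receptor CAR, by 1.39 ± 0.22 (adjusted p 0.00349). The level of *Hnf4a* itself was not called.

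Among 10 tested probes of FOXA targets, which include *Hnf4a* itself, 1 was called higher (10%) and 4 lower (40%). Shares over all tested probes were 15.8% and 17.3%, and the median difference of the FOXA targets was -0.08. Differences of these targets ranged from -3.03 to 2.59, and the largest fall lay outside the rule for naming genes. *Igfbp1* (ILMN_1230739), an IGF binding protein induced by fasting, was detected on 2 hSRY-OFF and all hSRY-ON arrays and was higher by 2.59 ± 0.61 (SE, n = 3 each, limma adjusted p 0.0162), or by 2.45 with the undetected array at its floor. *Alb* (ILMN_2651160), the albumin gene, was measured with 1 probe and was lower by -1.11 ± 0.22 (adjusted p 0.00852). That probe was dim, at 8.16, 8.15 and 7.49 in hSRY-OFF and 6.95, 6.97 and 6.55 in hSRY-ON livers. The hSRY-OFF mean was 7.94, against 14.67 for the *Ttr* probe, and how fully the *Alb* probe measures albumin mRNA was not tested. *Ttr* (ILMN_2443330), encoding transthyretin, was lower by -0.46 ± 0.11 (adjusted p 0.0174), and *Afp* (ILMN_1245472), the fetal serum protein gene, by -1.96 ± 0.50 (adjusted p 0.0223). The call of *Alb* held in all 16 alternatives. *Igfbp1* lost its call when replicate 1 of either group was left out (adjusted p 0.0617 for hSRY-OFF and 0.055 for hSRY-ON), *Ttr* without each of hSRY-OFF replicates 1, 2 and 3 (0.0544, 0.0558 and 0.058), and *Afp* without each of these 3 (0.061, 0.0568 and 0.0728), without hSRY-ON replicates 1 or 2 (0.0747 and 0.0511) or with no filter (0.0536).

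The 20 tested probes of C/EBP targets had a median difference of 0.42, with 6 called higher (30%) and 3 lower (15%). Shares over all tested probes were 15.8% and 17.3%. *Orm1* (ILMN_1226935), an acute phase protein gene, had levels of 8.26, 8.16 and 8.497 in hSRY-OFF and 12.60, 10.97 and 11.10 in hSRY-ON livers, higher by 3.25 ± 0.41 (SE, n = 3 each, limma adjusted p 0.00145). *Arg1* (ILMN_2952275), the urea cycle arginase, was higher by 1.05 ± 0.17 (adjusted p 0.00413). *Cyp2e1* (ILMN_2687014), a cytochrome P450 of hepatocytes, was at 13.87, 14.22 and 14.25 in hSRY-OFF and 10.58, 11.87 and 11.38 in hSRY-ON livers, lower by -2.84 ± 0.31 (adjusted p 0.000893). *Saa3* (ILMN_2772632), another acute phase gene, was lower by -1.17 ± 0.17 (adjusted p 0.00296). Of the genes induced in the acute phase, *Orm1* was thus higher and *Saa3* lower, and not every such gene of the list is given here. On the lower side *Saa3* stood alone, beside *Cyp2e1* and *Alb*. Of the 20 probes, 14 were higher in sign. The 3 probes of *Hp*, encoding haptoglobin, had differences of -0.05 to 0.00 and were not called. The calls of *Orm1*, *Arg1*, *Cyp2e1* and *Saa3* held in all 16 alternatives.

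**Figure D4:**
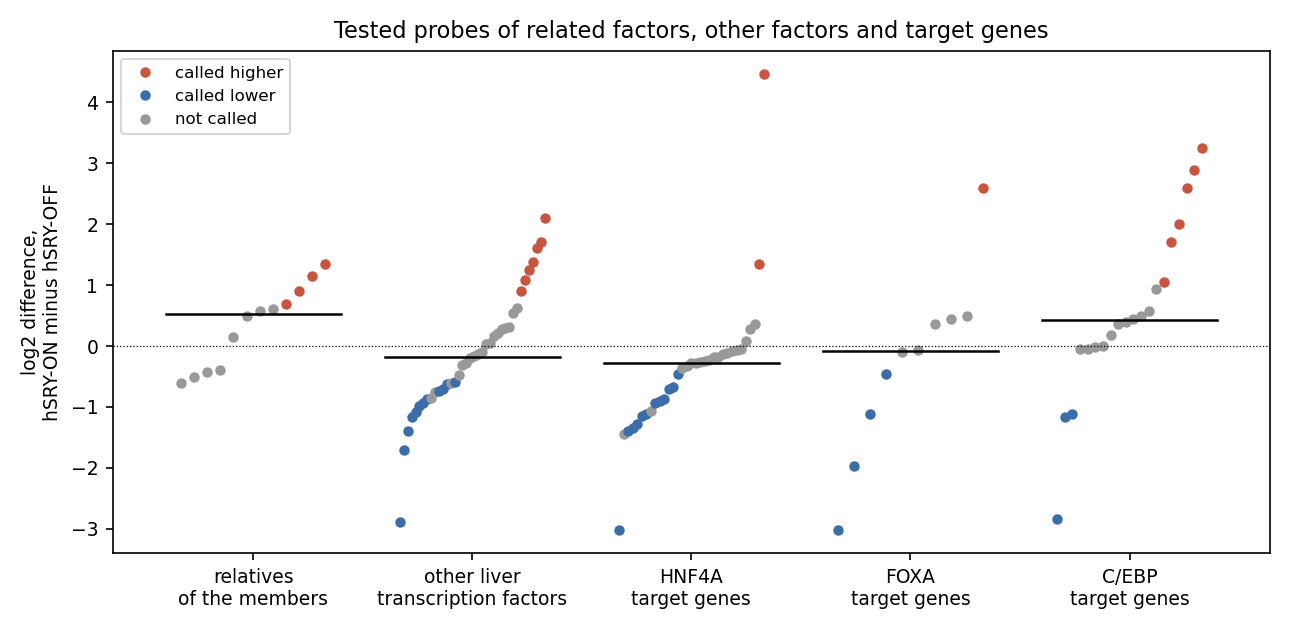
Log2 difference, hSRY-ON minus hSRY-OFF (vertical axis), of each tested probe of 5 gene lists, ordered by size within a list, with the median as a black line. Red was called higher, blue called lower and grey not called. All coloured points among the 12 probes of the relatives are red, whereas the other lists hold both colours. Of all tested probes 15.8% were called higher and 17.3% lower.

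The cell types of the liver were followed with marker lists, since a change in cell makeup would alter the RNA of whole tissue. The counts called in these lists stand beside 15.8% higher and 17.3% lower over all tested probes. The hepatocyte list includes *Hnf4a* itself and shares genes such as *Alb* and *Ttr* with the target lists. All 19 hepatocyte marker genes with a probe were detected. Of 24 tested probes of hepatocyte markers, limma called 0 higher and 6 lower (0 and 7 at an unadjusted p under 0.05), with a median difference of -0.14, and their summed level was 485009 to 489785 in hSRY-OFF and 440798 to 466622 in hSRY-ON livers. The sinusoidal endothelial list, which includes *Gata4*, had 4 of 17 probes called higher and 3 lower, with a median difference of 0.13 and summed levels of 15963 to 20375 and 16442 to 18746, and *Kdr* was not detected. The stellate and mesenchymal list, which also includes *Gata4*, had 5 of 16 probes called higher and 3 lower, with a median difference of -0.08 and summed levels of 15809 to 18024 and 24421 to 26556, and *Col1a2*, *Hgf*, *Hhip* and *Lhx2* were not detected. The 5 higher probes of that list belonged to 2 genes, with 4 of them probes of *Acta2*, a smooth muscle actin, and the 3 lower ones to 3 genes.

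Of the biliary markers, *Krt19*, *Sox9*, *Cftr* and *Mmp7* were among those not detected, and 1 of 5 tested probes was called higher and 2 lower, with summed levels of 582 to 731 in hSRY-OFF and 526 to 1995 in hSRY-ON livers. Macrophage markers had 1 of 13 probes called higher and 4 lower, with summed levels of 18965 to 23141 and 16206 to 20870, and *Cd5l* was not detected. Neutrophil markers had 0 of 13 probes called by limma (1 lower at an unadjusted p under 0.05), with summed levels of 54792 to 64068 in hSRY-OFF and 43447 to 114779 in hSRY-ON livers, and *Mmp8* was not detected. The part of these cell types in the differences of the hepatocyte factors was not tested.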

How the data were processed

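The authors hybridised liver RNA of 3 hSRY-OFF and 3 hSRY-ON pups to Illumina MouseRef-8 v2.0 BeadChips. The deposited table gives a mean bead intensity per probe, not background-subtracted or normalized, and a deposited detection p-value, which ranks the probe among negative control beads. Scanner software was not given in the sources used here. Groups and replicate numbers came from the sample labels, and 0 columns were left without a sample. Background was estimated with the help of the detection p-values and corrected by normexp (offset 16) before quantile normalization. The log2 values computed from the deposited intensities were fitted in limma 3.58.1 (R 4.3.3) with lmFit and eBayes without covariates, on probes that 3 or more of the 6 arrays detected (p under 0.01). Two-sided p-values were adjusted over the 10734 tested probes (Benjamini-Hochberg, threshold 0.05). The offset and normalization shrink differences of dim and very bright probes. The study's methods name the R package TCC for normalization and differential expression, which is made for counts and was not used here, and the submitters' processing notes name limma.

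For a probe undetected on all arrays of a group, the mean of the brighter group was set against the mean, over the other arrays, of the higher of the detection floor and the probe's own signal, and is given as "at least N-fold". Members and gene lists, written from general knowledge of the liver, were chosen with earlier results of these data known. Named from each list other than the members were up to 3 higher and 3 lower called genes with the smallest p and non-overlapping groups, and the most similar factor of each member, which for *Prox1* is not reported here. Genes outside this rule were chosen after their values were seen. *Igfbp1* and *Alb* were named under both the FOXA and C/EBP lists. The procedure was tested on simulated data with fewer changed probes than were called here. The alternatives were no background correction, an offset of 50, median scaling, trimmed mean scaling without background correction, 3 other filters, an intensity trend, array weights, a replicate block and each array left out. Other organs of the study were not analysed here.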

Additional observations from a re-analysis of the deposited data

How the results depend on the processing

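Of the single factors, *Cebpa*, *Cebpb* and *Foxa3* stayed past the threshold in the same direction in all 16 alternatives. The count of lower probes of the hepatocyte factors was 6, 3 under trimmed mean of M values scaling without background correction, and 2 to 5 with each array left out (2 without hSRY-OFF replicate 1 and 3 without hSRY-OFF replicate 2). Over all tested probes the count of lower calls was 1854, and 1607, 1141 and 1191 in these 3 settings. The count of higher probes was 1 in all of them. For the 50 probes of relatives and other factors, the count of higher probes was 11, and 6 to 14 with each array left out (6, 7 and 7 without hSRY-OFF replicates 1, 2 and 3). For the 54 probes of target genes, it was 8, and 5 with no filter, 5 with detection on all 6 arrays, and 4 to 9 with each array left out (4 without hSRY-OFF replicate 1), while the count of lower probes was 16, and 10 to 18 with each array left out (10 without hSRY-OFF replicate 2). The direction turned for *Hnf4a*, whose difference was -0.28 to 0.13 with each array left out, and for *Foxa2* minus *Foxa3*, at -0.20 to 0.26. Without background correction, differences of dim probes were smaller, at -0.28 for *Gata4*, -0.37 for *Foxa2* and -0.45 for the dim *Prox1* probe, and likewise 0.44 for *Gata2*, -0.64 for *Alb* and -0.65 for *Saa3*. Over all tested probes, 1944 were called higher and 2116 lower without hSRY-ON replicate 3, against 1700 and 1854 with all arrays. Leaving out any other array gave fewer calls than all arrays did. Some of these fits held fewer arrays or probes, and the cause of the shifts was not tested.

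The arrays of both groups carry replicate numbers 1 to 3, but the labels do not say that a number marks a shared litter or day. The numbers were therefore not taken as pairs. Deviations from the group means correlated at 0.02, 0.10 and 0.05 for numbers 1, 2 and 3, and not every array correlated best with its own number. With 3 arrays in each group, these correlations cannot show whether the numbers mark pairs. With the replicate block, the counts were 1 higher and 6 lower for the hepatocyte factors, 11 and 13 for relatives and other factors, and 7 and 17 for targets, and no call of a hepatocyte factor changed. For pairs of related factors the smallest p of a sign-flip test over 3 pairs is 0.25. Precision is limited by the number of arrays, and for *Gata4* and the dim *Prox1* probe also by signals near background.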
